A study of Tachycineta bicolor with 12 samples.

Results

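The proteins described here are those of the tree swallow (Tachycineta bicolor) transcriptome whose best protein match carries the name "uncharacterized protein LOC" followed by a number. Of 14908 protein-coding segments in the deposited table, 304 had such a name, and the 179 that reached 10 CPM (counts per 1000000 counts of the library, with NextSeq and MiSeq counts summed) in at least 1 tissue are the members. The table holds somewhat more rows than the gene set given in the study's text. The members carried 133 distinct LOC names, because 72 of the members belonged to a name that was given to 2 or more segments. The level that chose the members is the same measurement that is described below, so the tissues and levels are a description and carry no test.

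A LOC name is a placeholder: NCBI gives it to a predicted gene that has no official symbol, and "uncharacterized" means that the predicted protein was not tied to a known family. Some such genes are lineage-specific or fast-evolving coding genes, some are fragments of longer genes, and some derive from mobile elements such as endogenous retroviruses, which are present in many similar copies in a bird genome. No function is given to any of the LOC names below, and none is implied by the tissue in which a name was high.

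Adult female tree swallows gave 6 tissues, namely brain, ovary, spleen, liver, pectoral muscle and trunk blood, which in birds holds nucleated red cells that still contain RNA. Each tissue was 1 pool of RNA from 2 females, 1 sampled while establishing a territory and the other while incubating, with no treatment and no difference in genotype stated. Each pool was sequenced on a NextSeq (shorter reads) and a MiSeq (longer reads, with a shortened fragmentation step), so the 12 libraries repeat the sequencing and not the birds, and there is 1 pool per tissue. No p-value was therefore computed between tissues, and counting intervals cover counting error alone. In such bulk samples more cells of a type and more RNA per cell cannot be told apart.

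Total counts per tissue ran from 16496225 in spleen to 42803056 in muscle, with 15484468 to 40798612 on NextSeq and 1011108 to 2004444 on MiSeq. Of 30 marker genes for the 6 tissues 26 were matched by name and 25 of these were highest in their own tissue. Transthyretin, listed as a liver marker, was highest in brain, and FIGLA, MYH1B, CKM and ALAS2 were not matched. Mitochondrial transcripts took 59.3% of the counts in muscle and 0.656% in blood.

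The LOC-named proteins covered a wide range of levels. Of the 304 segments with such a name 58.9% reached 10 CPM, against 83.1% of all segments. The members' level in their highest tissue ran from 10.02 to 15149 CPM with a median of 58.6 CPM, against 77.1 CPM over all segments at 10 CPM. In that tissue 103 members were at 50 CPM or more, 56 at 100 CPM or more and 5 at 1000 CPM or more. The matching shares over all segments were not computed, so these counts describe the members alone. CPM is not divided by transcript length, so these values order tissues within a segment and not segments against each other.

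Spleen and ovary together were the highest tissue of 113 of the 179 members. Spleen was highest for 59 members (33.0%, against 23.9% of all segments at 10 CPM), and ovary for 54 (30.2%, against 32.4%). Brain was highest for 27 (15.1%, against 24% of all segments), so brain held a smaller share of the members than of the transcriptome. Blood was highest for 21 (11.7% against 8.97%), liver for 10 (5.59% against 6.58%) and muscle for 8 (4.47% against 4.17%). The 110 other uncharacterized proteins, which carry an open-reading-frame name or another placeholder in place of a LOC number, were more often highest in ovary (45) and brain (26) than in spleen (23), blood (11), muscle (4) or liver (1).

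These tissue counts depended on how the tissues were scaled. TMM factors moved the log2 CPM of every segment up by 1.46 in muscle and by 0.82 in both blood and liver, and moved it by -1.16, -1.04 and -0.91 in the ovary, the spleen and the brain, and highest tissues given below under TMM factors include that shift. Of the 179 members 116 (64.8%, against 66% of all segments at 10 CPM) kept their highest tissue under TMM factors, 158 (88.3%, against 83.2%) when CPM was recomputed without the 50 most abundant segments of each tissue, and 167 (93.3%, against 91.6%) when the mitochondrial genome was left out. Under TMM factors the same 179 members were highest in blood (67, 37.4%, against 21.7% of all segments), ovary (44, 24.6%, against 17%), spleen (26, 14.5%, against 12.1%), muscle (19, 10.6%, against 16.3%), liver (13, 7.26%, against 13.7%) and brain (10, 5.59%, against 19.1%). The members thus moved about as often as other segments, and brain held a smaller share of them than of all segments under both scalings. Of the 59 spleen members 26 stayed in spleen and 25 passed to blood, and of the 27 brain members 8 stayed and 17 passed to blood. All 21 blood members, all 8 muscle members and 9 of the 10 liver members kept their tissue under TMM, as did 44 of the 54 ovary members. The shift fixed part of this. Muscle rose most, so no muscle member could leave it, and a blood member could pass to muscle alone. The lead of spleen over ovary, 59 against 54, held with summed total counts and not with TMM. For the same members it was 47 against 50 without the 50 most abundant segments and 53 against 53 without the mitochondrial genome. With members found anew it was 56 against 56 on NextSeq alone and 69 against 59 on MiSeq alone. With the segments of each LOC number summed it was 43 against 49, so ovary led.

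**Figure D1:**
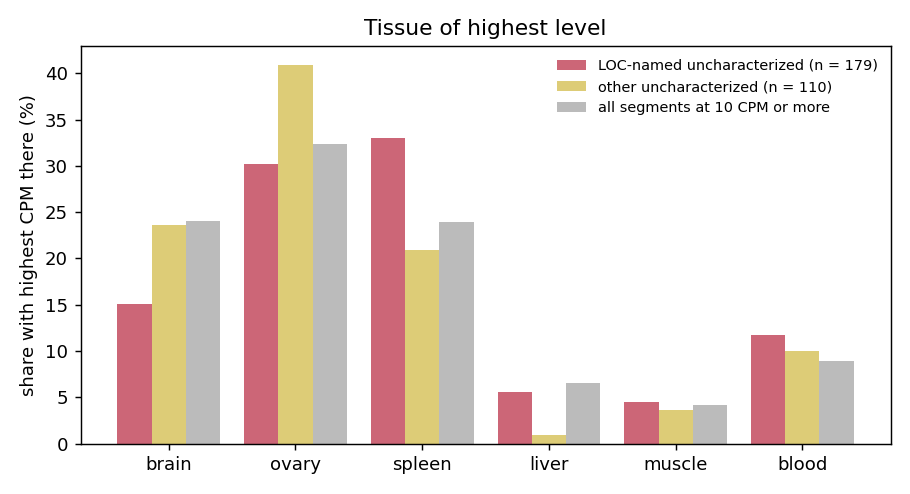
Share (%) of segments whose highest CPM was in each tissue, for the 179 LOC-named uncharacterized proteins, the 110 other uncharacterized proteins and all 12385 segments at 10 CPM or more. Spleen held 33.0% of the LOC-named proteins and 23.9% of all segments, and brain 15.1% and 24%; under TMM factors 26 members were highest in spleen and 67 in blood.

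The ovary held the members of highest CPM and of highest specificity. LOC107203432 was at 15220 CPM on NextSeq and 13835 CPM on MiSeq in ovary, and at 111.9 and 99.8 CPM in spleen. The other 4 tissues were each under 1 CPM with the platforms summed. Its summed level of 15149 CPM (95% counting interval 15102 to 15196) was 136-fold that of spleen, the next tissue. LOC108963381 followed the same order, at 7656 and 7264 CPM in ovary and 38.5 and 26.2 CPM in spleen on NextSeq and MiSeq, a 202-fold difference with the platforms summed, and under 0.3 CPM in the other 4 tissues. These 2 segments made up 65.2% of all member counts in ovary, where members took 3.50% of the library against 0.214% to 1.04% in the other 5 tissues.

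LOC107200817 had the highest specificity index τ of the members. The index runs from 0 (equal in all tissues) towards 1 (a single tissue). It was computed here on the natural log of CPM with values under 2 CPM set to 2. Where every other tissue is under 2 CPM, τ therefore depends on the highest level alone. The τ of LOC107200817 was 0.903, with 1253 and 1313 CPM in ovary on NextSeq and MiSeq, and its next tissue was brain at 1.88 CPM. LOC102060483 was at 627.1 CPM on NextSeq and 915.0 CPM on MiSeq in ovary, and no count fell on it in any of the 10 libraries of the other tissues. Against 3 counts in the shallowest of those tissues (0.182 CPM) its ovary level of 641.9 CPM was at least 3530-fold higher. Its τ of 0.893 was below that of LOC107200817 because its ovary level was lower. LOC103813859 came close to that pattern, with 435.2 and 606.2 CPM in ovary and 0.43 CPM in brain, its next tissue.

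Of the 12 members at 1 CPM or more in a single tissue (6.70%, against 3.59% of all segments at 10 CPM), 11 were ovarian (6.15%, against 0.985%). The 12th was a blood segment (0.559%, against 0.0646%), and no member was present in brain, spleen, liver or muscle alone, where 1.66%, 0.428%, 0.218% and 0.242% of all segments were. On NextSeq and MiSeq separately 11 of the 12 met the same condition. No count at all was found for 4 of the ovarian segments in the other 5 tissues: LOC102060483, LOC106857494 (239.5 CPM, at least 1317-fold), LOC107211478 (43.5 CPM, at least 239-fold) and LOC101812778 (29.5 CPM, at least 162-fold). How many of all segments had no count outside their highest tissue was not computed, so these 4 describe the members alone. The remaining ovarian ones ran from LOC107205346 at 10.02 CPM to LOC103813859 at 444.0 CPM. All 11 are restricted in the 6 tissues sampled, and no other reproductive, endocrine or gut tissue was measured.

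Other ovary-high members were shared with a second tissue. LOC101819928 was at 447.3 CPM in ovary, 149.0 CPM in spleen and 49.1 CPM in liver, and under 15 CPM in brain, muscle and blood. LOC102039513 was level between ovary (221.1 CPM) and liver (218.4 CPM), a ratio of 1.01, and the platforms disagreed about which was higher: ovary on NextSeq (223.5 against 215.9 CPM) and liver on MiSeq (265.4 against 176.9 CPM). Liver was its highest tissue under TMM factors as well. Spleen (22 members) and brain (23) were the usual second tissues of the 54 ovary members.

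The characterized segments whose profile over the 12 libraries was nearest that of LOC107203432, by Euclidean distance on log2(CPM + 1), were also ovarian. They were poly [ADP-ribose] polymerase 14, an ADP-ribosyltransferase (distance 4.75, 2897 CPM in ovary and 66.7 CPM in spleen), disabled homolog 2 (7.16, 2119 CPM in ovary), an endocytic adaptor, and a low-density lipoprotein receptor-related protein 2-like segment (7.59, 3780 CPM in ovary), named for a large endocytic receptor. The distances are a description over 6 pools, each sequenced on both platforms, and do not speak to shared control.

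The spleen members were about as broad as other spleen-high segments. Their median τ was 0.443, against 0.406 over all 2964 segments highest in spleen, and 40 of the 59 (67.8%, against 66.6%) were at 1 CPM or more in all 6 tissues. The ovary members differed more from their background, with a median τ of 0.686 against 0.451 over all 4010 segments highest in ovary, and with 17 of the 54 (31.5%, against 57.9%) at 1 CPM or more in all 6 tissues. The leading segment, 1 of 5 named LOC108961597, was at 2035 CPM on NextSeq and 1945 CPM on MiSeq in spleen, 8.17-fold its next tissue, ovary (248.5 CPM), and its lowest level was 37.3 CPM, in muscle. A second segment of that name was nearly confined to spleen among these tissues, at 371.4 CPM there, 5.98 CPM in muscle and under 1 CPM in the other 4 tissues.

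LOC101807300 had the highest τ of the spleen members (0.872). It was at 199.1 CPM on NextSeq and 621.7 CPM on MiSeq in spleen and no more than 1.30 CPM elsewhere with the platforms summed. LOC106864479 was at 46.1 and 43.5 CPM in spleen on NextSeq and MiSeq and 1.65 CPM in blood, its next tissue (27.9-fold). LOC107203432 and LOC108963381, the ovarian leaders, were also at 111.1 and 37.7 CPM in spleen. In 24 of the 59 spleen members (40.7%, against 43.9% of all segments highest in spleen) spleen was within 1.5 times the next tissue, which was brain for 29 of the 59. LOC105760822, for example, was nearly level between spleen (327.0 CPM), blood (310.7 CPM) and brain (308.4 CPM) for 1 of its 4 segments, with blood highest under TMM factors, and LOC105759114 at 226.7 CPM in spleen and 158.0 in brain likewise passed to blood.

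The nearest characterized profiles to the leading spleen segment were the actin-related protein 2/3 complex subunit 2 (distance 2.66, 591.9 CPM in spleen), which helps to nucleate branched actin, the protein kinase CLK4 (2.84, 604.7 CPM) and integrator complex subunit 6 (2.84, 524.8 CPM), part of a complex that processes small nuclear RNAs. All 3 were expressed in every tissue and highest in spleen.

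All 21 blood members kept their tissue under TMM factors and without the 50 most abundant segments, and 19 of them did so without the mitochondrial genome. TMM factors and the removal of the 50 segments raise blood more than any tissue but muscle. A blood member could therefore be lost to muscle alone in those settings. A further LOC108961597 segment led them, at 1979 CPM on NextSeq and 1815 CPM on MiSeq in blood, 13.5-fold its level in brain (146.3 CPM) and well above spleen (63.1 CPM). A LOC109022362 segment followed at 763.2 and 872.8 CPM in blood, against 241.2 CPM in spleen with the platforms summed. LOC105760822 (474.7 CPM) and LOC107604341 (241.2 CPM) were less distinct, at 1.5 and 1.47 times their next tissue, ovary. Both segments came from the same assembly locus, so their likeness is not independent evidence.

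A small set of 3 of the 21 blood members had a τ over 0.8, against 18 of all 1111 segments highest in blood. The 2 segments of LOC103826068 were at 92.2 CPM (τ 0.847) and 47.5 CPM (τ 0.821) in blood, and their next tissue was spleen at 1.21 and 0.667 CPM. A LOC106853854 segment was at 55.5 CPM on NextSeq and 75.8 CPM on MiSeq in blood and at 1.91 CPM in spleen and ovary, with τ 0.828. The blood leader's nearest characterized profiles were F-box only protein 3, a ubiquitin ligase subunit (distance 2.22, 1366 CPM in blood), insulin receptor substrate 4, a signalling adaptor (2.68, 1493 CPM) and the ubiquitin ligase UBR4 (2.94, 958.3 CPM).

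Brain members were few and broad. Their median τ was 0.377, against 0.584 over all 2968 segments highest in brain. No brain member had a τ over 0.8, against 319 of all 2968 segments highest in brain. Of the 27 members, 19 (70.4%, against 30.7% of all segments highest in brain) were within 1.5 times their next tissue. That next tissue was spleen for 21 of the 27. Of the 27 brain members, 18 bore a name given to 2 or more segments, against 12 of the 54 ovary members. Segments of 1 name are not independent. Over all members the median τ was 0.424 for such names and 0.643 for names with 1 segment. The part of repeated names in the breadth of the brain members was not tested. Of the 5 brain members of highest CPM, 4 changed tissue under TMM factors. A LOC108961597 segment (241.8 CPM in brain, 228.9 in spleen), LOC101234155 (83.4 CPM) and LOC101822195 (82.2 CPM) passed to blood, and LOC107604624 (79.0 CPM) to muscle.

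LOC107210825 was the clearest brain member. It was at 88.9 CPM on NextSeq and 93.5 CPM on MiSeq in brain, at 19.9 and 27.9 CPM in ovary, at 1.0 CPM in muscle with the platforms summed and at 0 in liver and blood, with τ 0.742. LOC107207942 (41.1 CPM in brain, 5.58 CPM in blood, 7.36-fold) and LOC102063822 (15.8 CPM in brain, 2.94 CPM in spleen, 5.37-fold) also kept brain as their highest tissue under TMM factors. The leading brain segment, which was nearly level between brain and spleen, had tetratricopeptide repeat protein 14 (distance 1.47), PRR14L (1.62) and RICTOR (1.68), a subunit of the mTOR complex that senses growth signals, as nearest characterized profiles.

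Liver members included a pair of restricted ones. LOC102063621 was at 174.5 CPM on NextSeq and 404.9 CPM on MiSeq in liver and at 1.32 CPM or less in every other tissue with the platforms summed (141-fold over ovary, τ 0.867). LOC418414 was at 50.9 CPM in liver with the platforms summed (68.2 CPM on MiSeq), at 1.39 CPM in ovary and at 0 in muscle and blood (36.5-fold, τ 0.824). LOC107201166 was divided between liver (48.5 CPM) and spleen (15.0 CPM), and LOC106855542 between liver (127.1 CPM) and ovary (99.7 CPM). LOC106855542 came from the same assembly locus as LOC102039513, so the likeness of their profiles is not independent evidence. Albumin, a liver product, was at 828 CPM in spleen and 75986 CPM in liver. Its part in the spleen level of LOC107201166 was not tested. LOC107202736 was spread over all tissues, at 70.7 CPM in liver and 3.31 CPM in blood, its lowest.

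Around LOC102063621 stood liver genes of known function. APOBEC1 complementation factor, which takes part in editing of apolipoprotein B RNA in mammals, was nearest (distance 1.96, 187.8 CPM in liver). SLC2A9, a urate transporter (2.22, 365.2 CPM), and an aldo-keto reductase family 1 member B10-like segment (2.28, 119.1 CPM) followed. All 3 were at 2.73 CPM or less outside liver.

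Of the 8 muscle members, 4 were segments of LOC108963666. Summed over platforms these were at 400.45, 270.1, 74.6 and 19.5 CPM in muscle, and 9.61-fold to 21.3-fold their next tissue. LOC107202466 was at 86.5 CPM on NextSeq and 108.8 CPM on MiSeq in muscle and 7.12 CPM in spleen, and LOC107207149 was at 65.8 and 67.6 CPM in muscle and 10.4 CPM in brain. All 8 kept muscle as their highest tissue under TMM factors, which raise muscle most, so they could not do otherwise. None of the 8 had a τ over 0.8 with total counts, against 58 of all 517 segments highest in muscle. The highest was 0.788, for LOC107202466. Under TMM factors 4 of the 8 members were over 0.8 (0.826 to 0.865). ATP synthase subunit f (distance 5.06), cytochrome c oxidase subunit 6C (6.01), both of which serve oxidative phosphorylation, and the sarcomere protein nexilin (6.11) were the nearest characterized profiles to the leading muscle segment, at larger distances than for the spleen, blood, brain or liver leaders. The distance also counts the level and the gap between platforms. Their τ values were 0.429, 0.399 and 0.595, against 0.637 for the leading segment.

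**Figure D2:**
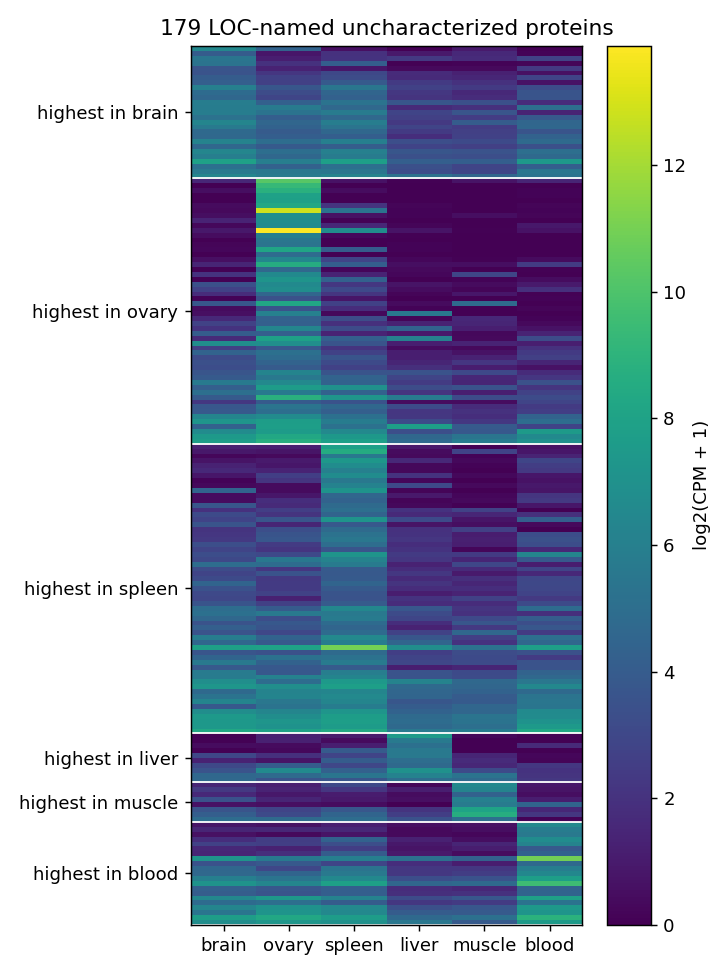
Level of the 179 members in the 6 tissues as log2(CPM + 1), platforms summed, with 1 row per segment, grouped by highest tissue and ordered by τ within a group. The upper rows of the ovary group are dark outside ovary, while most rows of the brain and spleen groups show levels in several tissues; highest tissues are those with total counts, and 63 of the 179 differ under TMM factors.

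Specificity among the members was wider than a middle value shows. The median τ was 0.517 against 0.461 over all segments at 10 CPM and 0.489 over the other uncharacterized proteins, and the range was 0.139 to 0.903. A τ over 0.8 was found for 25 members (14.0%, against 6.35% of all segments) and a τ under 0.3 for 31 (17.3%, against 22.7%). The 25 consisted of 15 of 54 ovary, 5 of 59 spleen, 3 of 21 blood and 2 of 10 liver members. Over all segments highest in those tissues the counts were 163 of 4010, 111 of 2964, 18 of 1111 and 117 of 815. Each of the 25 kept its highest tissue on NextSeq alone, on MiSeq alone and under all 3 scalings. For the scalings that outcome was fixed. A τ over 0.8 needs a gap to the next tissue wider than any shift between tissues in them. Under TMM factors 18 of the 25 still had a τ over 0.8, namely 12 ovary, 3 blood, 2 liver and 1 spleen segment. In 43 members (24.0%, against 13.8%) the highest tissue was 10 or more times the next, and in 89 (49.7%, against 47.6%) it was 2 or more times the next. The rule selects on the highest tissue. With a floor of 2 CPM, τ cannot exceed 0.8 for a segment that peaks near 10 CPM. These shares are therefore read beside those of all segments under the same minimum.

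At the other end, 98 members (54.7%, against 55.4%) were at 1 CPM or more in all 6 tissues, and 22 (12.3%, against 19.3%) at 10 CPM or more in all 6. Of these 22, 12 were highest in spleen, 5 in blood, 3 in brain and 2 in ovary. How all segments at that level divided among the tissues was not computed. The highest level in a member's lowest tissue was 48.9 CPM, in liver, for a LOC105760822 segment, followed by the spleen leader of LOC108961597 (37.3 CPM in muscle), LOC108964060 (29.4 CPM in liver), another LOC105760822 segment (28.4 CPM in liver) and LOC101816049 (26.8 CPM in liver). The first and the last of these came from the same assembly locus, so they are not independent. The most even member was the LOC105760822 segment with τ 0.139, at 48.9 to 327.0 CPM.

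The commonest presence patterns after all 6 tissues were ovary alone (11 members), every tissue except blood (10), ovary with spleen (9) and brain, ovary, spleen and blood (8). At 10 CPM the members were found most often in spleen (126, 70.4%, against 72.9% of all segments), ovary (119, 66.5%, against 77.8%) and brain (99, 55.3%, against 76%). Blood followed with 67 (37.4%, against 36.6%), then liver with 45 (25.1%, against 43.7%) and muscle with 43 (24.0%, against 35%). Brain, liver, muscle and ovary each held a smaller share of the members than of all segments, and spleen and blood about the same.

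**Figure D3:**
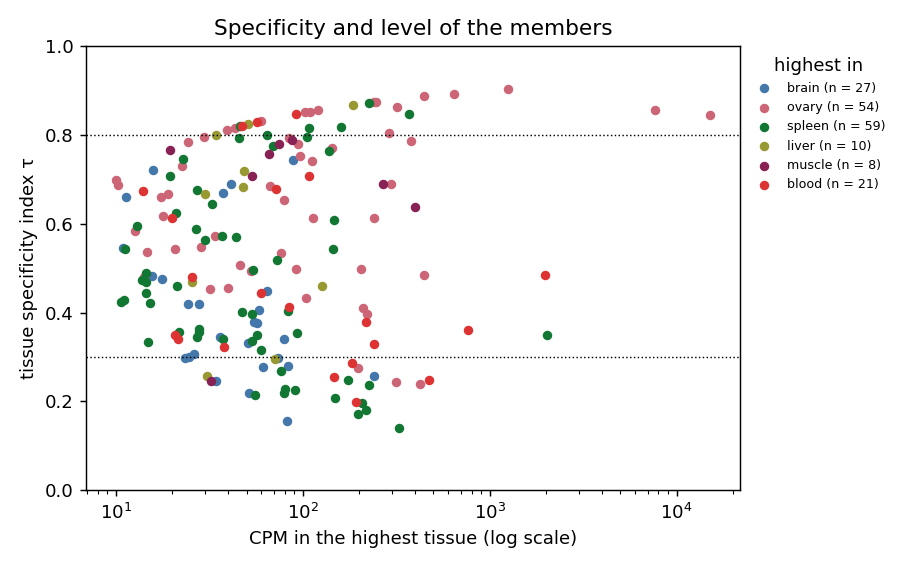
Specificity index τ (no unit, 0 to 1) against CPM in the highest tissue (log scale) for the 179 members, coloured by highest tissue, with dotted lines at 0.8 and 0.3. The 25 members above 0.8 were highest in ovary (15), spleen (5), blood (3) and liver (2). All 25 kept that tissue under TMM factors, whose shifts are smaller than the gap such a τ needs, while 63 of the 179 did not.

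Several LOC names were given to many segments, and these did not always have 1 tissue profile. There were 16 names with 3 or more segments, with 90 segments in all, of which 56 were members. LOC108961597 reached the highest CPM of them, and its segments differed in highest tissue. Its 5 segments were all members: 3 were highest in spleen (2029.7, 371.4 and 147.1 CPM), 1 in blood (1969.9 CPM) and 1 in brain (241.8 CPM on both platforms summed, although spleen was highest on MiSeq and blood under TMM factors). Their τ ran from 0.257 to 0.846. The 5 share a name and not necessarily a gene, since each name is that of the best match in another bird.

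The 4 members among the 16 segments of LOC109022362 were highest in blood (769.4 CPM), brain (55.0 CPM) and ovary (14.1 and 12.6 CPM), with 3 of the 4 in blood under TMM factors, and the other 12 segments peaked under 10 CPM. LOC105760822 had segments highest in blood (474.7 CPM), ovary (421.4 CPM) and spleen (327.0 and 57.0 CPM), and all 4 were highest in blood under TMM factors. LOC105759114 had members at 226.7 CPM in spleen, 182.5 CPM in blood, 51.7 CPM in brain and 28.4 CPM in ovary, of which the first 3 were highest in blood under TMM factors. The spread of these names over tissues therefore rested in part on the scaling, whereas the spleen and blood segments of LOC108961597 did not change.

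In other names the members shared a highest tissue, although it could change as a block. All 4 members of LOC106630388 were highest in spleen (14.4 to 53.6 CPM, τ 0.396 to 0.489), and all 4 in blood under TMM factors. All 4 segments of LOC107604624 were highest in brain (15.5 to 79.0 CPM), and under TMM factors 3 were highest in blood and 1 in muscle. The 3 segments of LOC106863016 stayed in brain (10.9 to 58.6 CPM) under both scalings, and their blood levels were the lowest of the 6 tissues (0.549 to 2.34 CPM). Within LOC106630388, and within LOC106863016, some segments came from 1 assembly locus, so their likeness is not independent evidence. LOC101234155 had 5 members highest in brain (27.7 to 83.4 CPM) and a sixth in spleen (15.2 CPM, with 11.2 CPM in brain), all 6 of them highest in blood under TMM factors.

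LOC106629277 had 5 members between 11.1 and 21.8 CPM, 2 highest in blood and 3 in spleen, and all 5 in blood under TMM factors. LOC106629201 had 2 members among 9 segments, at 34.2 CPM in brain and 27.8 CPM in spleen, which passed to blood and muscle under TMM factors. LOC107207942 also had 2, at 41.1 CPM in brain and 11.2 CPM in spleen, and LOC106853854 combined 3 blood segments (84.2, 71.8 and 56.7 CPM) with a spleen segment (53.8 CPM). Neither of these last names changed under TMM factors. The other names with 3 or more segments, LOC107210102, LOC108961591 and LOC108964060, had 1, 1 and 2 members, highest in ovary, ovary and spleen, with the last in blood under TMM factors.

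**Figure D4:**
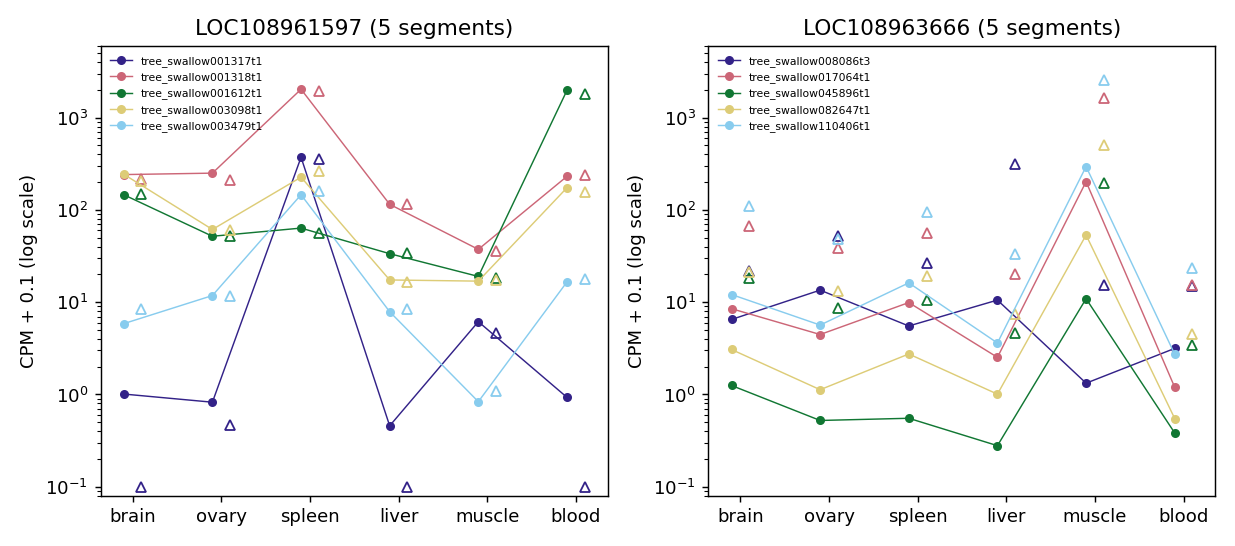
Level in each tissue (CPM + 0.1, log scale) of the 5 segments of LOC108961597 and the 5 segments of LOC108963666, with filled circles joined by lines for NextSeq and open triangles for MiSeq. The LOC108961597 segments peaked in spleen, blood or brain with the platforms close together (the brain segment was highest in spleen on MiSeq and in blood under TMM factors), whereas the LOC108963666 triangles lay 8.12-fold to 29.9-fold above the circles in each segment's highest tissue.

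A set of 15 members (8.38%, against 16.8% of all segments at 10 CPM) came from an assembly locus that also held a segment without a LOC name, and 11 of these (6.15%, against 0.242%) shared it with a segment named as an endogenous retrovirus group K Pol-like, NYNRIN-like or K02A2.6-like protein. In the shares of all segments the other segment could bear the same protein name, which it could not for a member. The Pol-like, NYNRIN-like and K02A2.6-like names were all found at the members' own loci. Other mobile-element names were not counted, and all segments include the members. Of the 11 members, 4 came from the same locus. The shares of 6.15% and 0.242% are therefore a description and not a matched comparison. Pol is the retroviral polymerase polyprotein, and the mammalian gene NYNRIN contains retrovirus-derived sequence. In 19 of the 22 pairs of a member with a segment without a LOC name both had the same highest tissue. These pairs are not independent, since some members and partner segments enter several pairs. The 4 members of a locus given below, for example, are all paired with the same K02A2.6-like segments. The matching share over all segment pairs of a locus was not computed, so the count describes these pairs alone. LOC107603883 and an endogenous retrovirus group K member 25 Pol-like segment were both highest in blood, at 219.1 and 238.9 CPM, and followed each other in spleen (87.3 and 76.2 CPM) and liver (8.65 and 6.84 CPM). LOC106629915 and a group K member 11 Pol-like segment were both highest in brain, at 64.1 and 113.2 CPM. The 4 members of another locus (LOC105760573, LOC108963081, LOC101816049 and LOC108964060) were highest in spleen at 198.3, 148.6, 79.2 and 218.2 CPM (in blood under TMM factors), and its K02A2.6-like segments were highest in spleen at 70.8 and 10.9 CPM.

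The pairs could also differ. A LOC106853854 segment was highest in blood (84.2 CPM) and its NYNRIN-like partner in spleen (34.3 CPM), LOC107215729 was highest in ovary (210.7 CPM) and its NYNRIN-like partner in brain (3.30 CPM), and a LOC105760822 segment was highest in ovary (421.4 CPM) and a muscleblind-like protein 3 partner in brain (9.93 CPM). LOC107210102 was at 104.1 CPM in ovary beside a Pol-like segment at 2.20 CPM.

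The other 4 shared a locus with a characterized gene. LOC101819928 (447.3 CPM in ovary) lay with a zinc finger CCCH-type antiviral protein 1-like segment (484.7 CPM), named for an antiviral RNA-binding protein, and the pair had 149.0 and 161.6 CPM in spleen. LOC103823212 (84.2 CPM in ovary, τ 0.793) lay with a mucin-1 segment (199.1 CPM in ovary, τ 0.784), an epithelial surface glycoprotein. LOC102062023 (76.1 CPM in ovary) lay with the probable UDP-sugar transporter SLC35A4 (19.9 CPM in ovary), and LOC100189952 (25.6 CPM in blood) with the SYS1 homolog, a Golgi membrane protein (1.33 CPM in blood). Segments of 1 assembly locus can draw on the same reads, so their likeness is not independent evidence. Pairs in which both segments had a LOC name were left out of the counts of shared loci. Whether reads were split between similar segments was not measured.

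The 2 platforms gave the same highest tissue for 161 of the 179 members (89.9%, against 91.6% of all segments at 10 CPM). Of the 18 that differed, 17 had a highest tissue within 1.5 times the next, a margin that 63 members had in all. The share of all segments with that margin was not computed. Those with the most counts were LOC102039513, LOC107203457 (147.3 CPM in blood and 146.6 in ovary, with blood highest on NextSeq and ovary on MiSeq), the LOC108961597 brain segment, LOC100190038 (80.2 CPM in spleen, 74.1 in ovary, highest in muscle under TMM factors) and LOC100230122 (76.8 CPM in spleen, 70.0 in ovary, highest in blood under TMM factors). The last 2 were highest in ovary on MiSeq. The exception to the narrow margin was a LOC108963666 segment (25.7 CPM in liver, 1.66 times ovary).

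The level itself differed between platforms for a larger share of the members than of all segments. MiSeq exceeded NextSeq by more than 2 times in the highest tissue, after 0.5 CPM was added to both, for 23 members (12.8%, against 1.45% of all segments), and NextSeq exceeded MiSeq by that much for none (0 of 179, against 0.573%). The log2 ratio of NextSeq to MiSeq had a median of -0.15 and an SD of 0.82 over the members, against an SD of 0.37 over all segments and 0.30 over the other uncharacterized proteins, of which 1 was past 2-fold in each direction. In the highest tissue the departure was thus wider than over all segments and lay on the MiSeq side.

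Names with several segments held 16 of the 23. These were 16 of the 72 members whose name had 2 or more segments (SD of the log2 ratio 1.05), compared with 7 of the 107 whose name had a single segment (SD 0.56). A few names carried most of the 16, with 5 segments of LOC108963666, 3 of LOC101234155 and 3 of LOC106630388. Segments of 1 name are not independent. Over all segments at 10 CPM the shares were 5.18% and 1.06%. Those were grouped by full protein name, with any isoform or partial label, and the members by LOC number, so the groupings are not strictly matched. By species of the best match it was 7 of 26 members matched to the white-throated sparrow (Zonotrichia albicollis, against 2.31% of all segments matched to that bird), 7 of 35 matched to the canary (Serinus canaria, 2.16%), 5 of 24 to the zebra finch (Taeniopygia guttata, 2.03%) and 0 of 41 to the great tit (Parus major, 0.855%). The canary count included the 5 segments of LOC108963666, and the zebra finch count 3 segments of LOC101234155. The other 4 species had 1 each, of 26 (Ficedula albicollis), 22 (Sturnus vulgaris), 3 (Geospiza fortis) and 2 (Gallus gallus) members. Members whose protein was labelled partial or low quality numbered 24, and 5 of these were past 2-fold, against 18 of the 155 members not so labelled. The share over all segments so labelled was not computed. Fragment and read length differ between the platforms, and their part in the ratio was not tested.

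LOC108963666 was the extreme. Its 4 muscle segments were at 295.4, 202.6, 53.4 and 10.8 CPM on NextSeq and at 2538, 1644, 506.9 and 197.1 CPM on MiSeq, a ratio of 8.12 to 18.2. The fifth was at 10.5 CPM on NextSeq and 312.5 CPM on MiSeq in liver (log2 ratio -4.84), and its highest tissue on NextSeq was ovary (13.4 CPM). Muscle was nonetheless highest on both platforms for the other 4 segments. LOC107050687 was next among single-segment names, at 7.07 CPM on NextSeq and 65.7 CPM on MiSeq in spleen, so that it reached the 10 CPM minimum through MiSeq. In the members' highest tissue the largest ratio the other way was that of a LOC101234155 segment, at 37.1 CPM on NextSeq and 20.8 CPM on MiSeq in brain (log2 ratio 0.82), a name of which 3 other members were more than 2 times higher on MiSeq. Over all tissues with 100 or more counts it was that of LOC107211971 in liver, at 3.92 CPM on NextSeq and 0.281 CPM on MiSeq.

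Tissue by tissue, over members with 100 or more counts there, the SD of the log2 ratio was lowest for ovary (0.69), spleen (0.71) and brain (0.78) and higher for blood (0.84), liver (0.98) and muscle (1.04), and over all segments it was 0.41 to 0.46. The rank correlation of NextSeq with MiSeq levels across segments, which share libraries and are not replicates, was 0.925 to 0.950 for members and 0.973 to 0.983 for all segments. MiSeq was more than 2 times higher than NextSeq for 22 of 89 members in muscle (against 1.89% of all segments with 100 or more counts there), 21 of 138 in spleen (1.39%), 19 of 120 in brain (1.99%), 17 of 96 in liver (1.57%), 17 of 141 in ovary (2.13%) and 15 of 107 in blood (2.2%). In every tissue the members' share was above that of all segments. The reverse was found for 3 members in liver (3.12%, against 1.73%), 3 in blood (2.80%, against 1.62%), 2 in muscle (2.25%, against 1.7%), 2 in brain (1.67%, against 1.29%) and 0 in ovary (against 1.18%) and spleen (against 1.42%). With 0 to 3 members per tissue, these shares are too small to set the members apart from all segments on the NextSeq side.

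**Figure D5:**
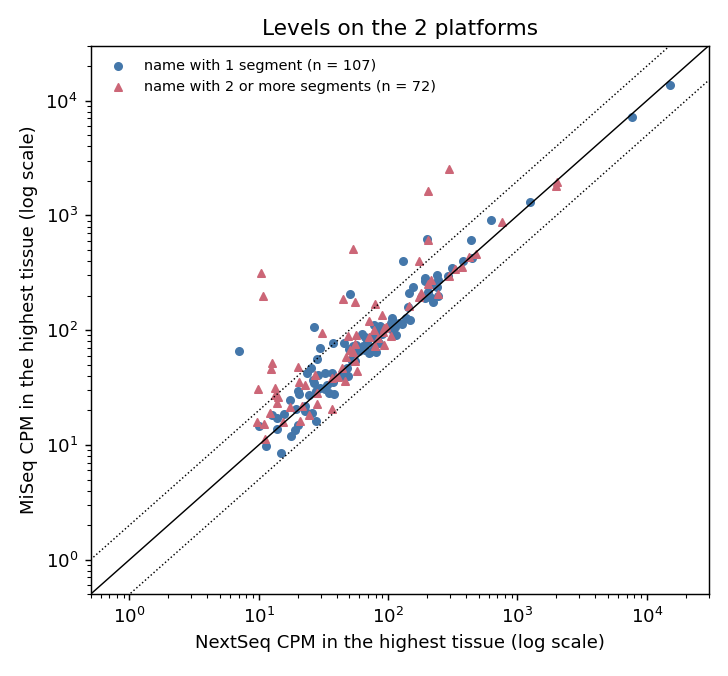
MiSeq against NextSeq CPM (both log scale) of the 179 members in their highest tissue, with circles for names with 1 segment and triangles for names with 2 or more, a solid line of equality and dotted lines at 2-fold. Points beyond 2-fold after 0.5 CPM was added lay above the line in 23 members and below it in 0.

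At the 10 CPM minimum the lowest members were LOC107205346 (10.02 CPM, 95% counting interval 8.85 to 11.3), LOC107215834 (10.27 CPM), both highest in ovary, and LOC107050687 (10.67 CPM in spleen, highest in muscle under TMM factors). Just outside it were LOC106632138 (9.93 CPM), LOC107199242 (9.76 CPM) and LOC105760917 (9.70 CPM). The interval of LOC107205346 spans the minimum, so counting error alone could move such a segment across it. With NextSeq alone 176 of the 179 members reached 10 CPM, with MiSeq alone 177, and 174 reached it on both. Of the 125 LOC-named segments that did not reach it, 103 peaked between 1 and 10 CPM and 22 under 1 CPM.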

How the data were processed

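Per the labels, total RNA was extracted with Trizol and stranded mRNA libraries were made. The submitters' processing notes name Trimmomatic 0.36 and STAR 2.5.2a, and the study's methods name bwa mem for mapping each tissue's reads to the protein-coding segments of its own assembly; neither source says that its aligner made the deposited values. The authors counted reads per segment and deposited expected counts for each segment and library, in steps of 0.5, with the best protein match of each segment. The deposited table holds no sequences.

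NextSeq and MiSeq counts were summed per tissue and divided by total counts (CPM). τ was the mean over the 5 lower tissues of 1 minus the ratio of ln CPM to the largest ln CPM, with a floor of 2 CPM. Presence was 1 CPM, and platform ratios used 0.5 CPM. Intervals are exact Poisson at 95%. TMM factors came from edgeR 4.0.16 in R 4.3.3, on counts rounded to whole numbers; all else used Python 3.11.15, pandas 2.3.3, numpy 2.4.6 and scipy 1.17.1. With 1 pool per tissue no count test was run, and the code was tested on simulated counts.

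Members and lists were chosen with earlier results of these data known. Named members were, per tissue, the 5 of highest CPM and the 3 of highest τ, then the 5 of highest lowest-tissue CPM, the 5 with most counts whose highest tissue differed between platforms, the 3 on each side of the minimum, names with 3 or more segments and the extreme platform ratios. The members without counts elsewhere, those sharing a locus and a few others were named after their values were seen. Alternatives were each platform alone, their mean, TMM, 2 rescalings, other minimums and floors, summed names and a low-count filter.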

Additional observations from a re-analysis of the deposited data

How the results depend on the processing

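No paired analysis was possible because no result comes from a test and each tissue is 1 pool. Of the 179 members 176 remained with NextSeq alone, 177 with MiSeq alone, 163 with TMM factors, 152 at a minimum of 20 CPM and all 179 at 5 CPM, for the mean of the platforms and without the 50 most abundant segments or the mitochondrial genome. With the members found anew under TMM factors, 71 were highest in blood, 38 in ovary, 22 in spleen, 21 in muscle and 6 in brain, and the median τ was 0.486. Without the 50 most abundant segments blood held 45, muscle 15 and the median τ was 0.447, and without the mitochondrial genome muscle held 16 with a median τ of 0.481. Taking the segments of a LOC number together left 133, of which 14 were highest in brain, 13 in blood and 5 in muscle, with a median τ of 0.564. A minimum of 5 CPM gave 41 highest in brain, 19 present in a single tissue and a median τ of 0.543, and 20 CPM a median of 0.499. The median was 0.510 for the mean of the platforms and ran from 0.507 to 0.514 with 1 platform left out. With a floor of 1 CPM in place of 2 it was 0.536 and 55 members exceeded 0.8, and on linear CPM it was 0.799 with 89 members, so the count over 0.8 depends on the form of τ. Presence at 2 CPM gave 21 in a single tissue. The cause of these shifts was not tested beyond the settings' own construction. Over all alternatives 84 summary values stayed within 1.5 times the reported one, or for the median τ within the SD between the platforms, and 25 did not. MiSeq counts are the shallower ones, and 1 MiSeq count was worth 0.499 to 0.989 CPM, so presence at 1 CPM rests there on few counts.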
